A study of Homo sapiens with 3 samples.

Results

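The G1 cyclins, kinases and their inhibitors are 10 genes that set how a cell passes from G1 into DNA replication. They were taken by name from the 19970 protein-coding genes of the autosomes and the X chromosome: the D-type cyclin genes CCND1, CCND2 and CCND3, the kinase genes CDK4 and CDK6, the CIP/KIP inhibitor genes CDKN1A, CDKN1B and CDKN1C, and the INK4 inhibitor genes CDKN2A and CDKN2C. Each was described by every peak of H3K27ac and H3K4me3 that shared at least 1 bp with its RefSeq gene record or the 10 kb on either side, a stretch called the span here. The cells were KBM7, an established near-haploid line from a human chronic myeloid leukaemia (CML) with the BCR-ABL fusion, grown in IMDM with 10% serum, with no treatment or edited allele named in the labels. ChIP-seq gave 1 library of H3K27ac, an acetylation of active promoters and enhancers, and 1 of H3K4me3, a methylation of promoters, beside 1 input library of chromatin that was not immunoprecipitated. With 1 library per mark there is no replicate error and no test, and all intervals below cover counting error only.

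D-type cyclins are made in response to growth signals and bind CDK4 or CDK6. The complexes phosphorylate the retinoblastoma protein, which releases E2F transcription factors and lets the genes of DNA replication be transcribed. INK4 proteins bind CDK4 and CDK6 and keep the cyclin out, whereas CIP/KIP proteins bind whole cyclin-kinase complexes and mainly restrain those of CDK2. In blood progenitors this balance separates quiescent from dividing cells, and BCR-ABL signalling is known to act on it through D cyclins and p27, the product of CDKN1B.

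The 10 spans held 143 of the 96659 H3K27ac peaks and 54 of the 36951 H3K4me3 peaks. An H3K4me3 peak overlapped 42 of the 143 (29.4%), against 36.0% of the whole H3K27ac list. A peak's fold enrichment is the authors' value for its summit over an expected background, and a median H3K27ac summit of the whole list held 21 fragments, a median H3K4me3 summit 39. The expected background at the members' peaks had a median of 3.63 fragments for H3K27ac, as in the whole list (3.63), and of 3.06 for H3K4me3 against 2.66. The cell type of the label was checked on markers: 10 of 10 myeloid and progenitor genes, among them SPI1, GATA2 and CD34, had both marks in their span (9 of 10 at the record, where MPO lacked H3K4me3), and 4 of 10 genes of other tissues did, namely CKM, CDX2, SFTPC and PAX6. Of all protein-coding genes 72.8% had both in the span. NEUROD1 and INS had H3K4me3 only. The liver genes ALB and APOB, the muscle gene DES and the epithelial gene KRT5 had neither.

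H3K4me3 was present in the span of all 10 genes and H3K27ac in 9. Across protein-coding genes 78.9% had H3K4me3 in the span, 75.2% had H3K27ac and 72.8% had both, so 9 of 10 genes with both marks is not far from what most genes show. CCND1 was the exception. Peaks touching the gene record itself gave the same counts, 10 genes with H3K4me3 (72.3% of protein-coding genes), 9 with H3K27ac (68.6%) and 9 with both (65.9%). Within 1 kb of a gene end 8 members had both marks, against 60.4%. The members departed more from other genes in how wide the marked intervals were than in how high their summits rose. The widest H3K4me3 interval in the span had a median of 4491 bp over the members against 2656 bp over the 15749 genes with the mark (interquartile range 1870 to 3535), and 5 of 10 members lay above the upper quartile. For H3K27ac the medians were 6323 bp over 9 members and 2113 bp over 15009 genes (1315 to 3166), with 6 of 9 members above the upper quartile. The highest fold had medians of 70.0 and 64.7 for H3K4me3 and of 27.9 and 24.3 for H3K27ac. The records run from 2558 bp (CDKN1C) to 232 kb (CDK6), and those of CDKN1B and CDKN2C, which had the widest intervals, measure 5002 bp and 13.9 kb. The part of record length in the widths was not tested.

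**Figure D1:**
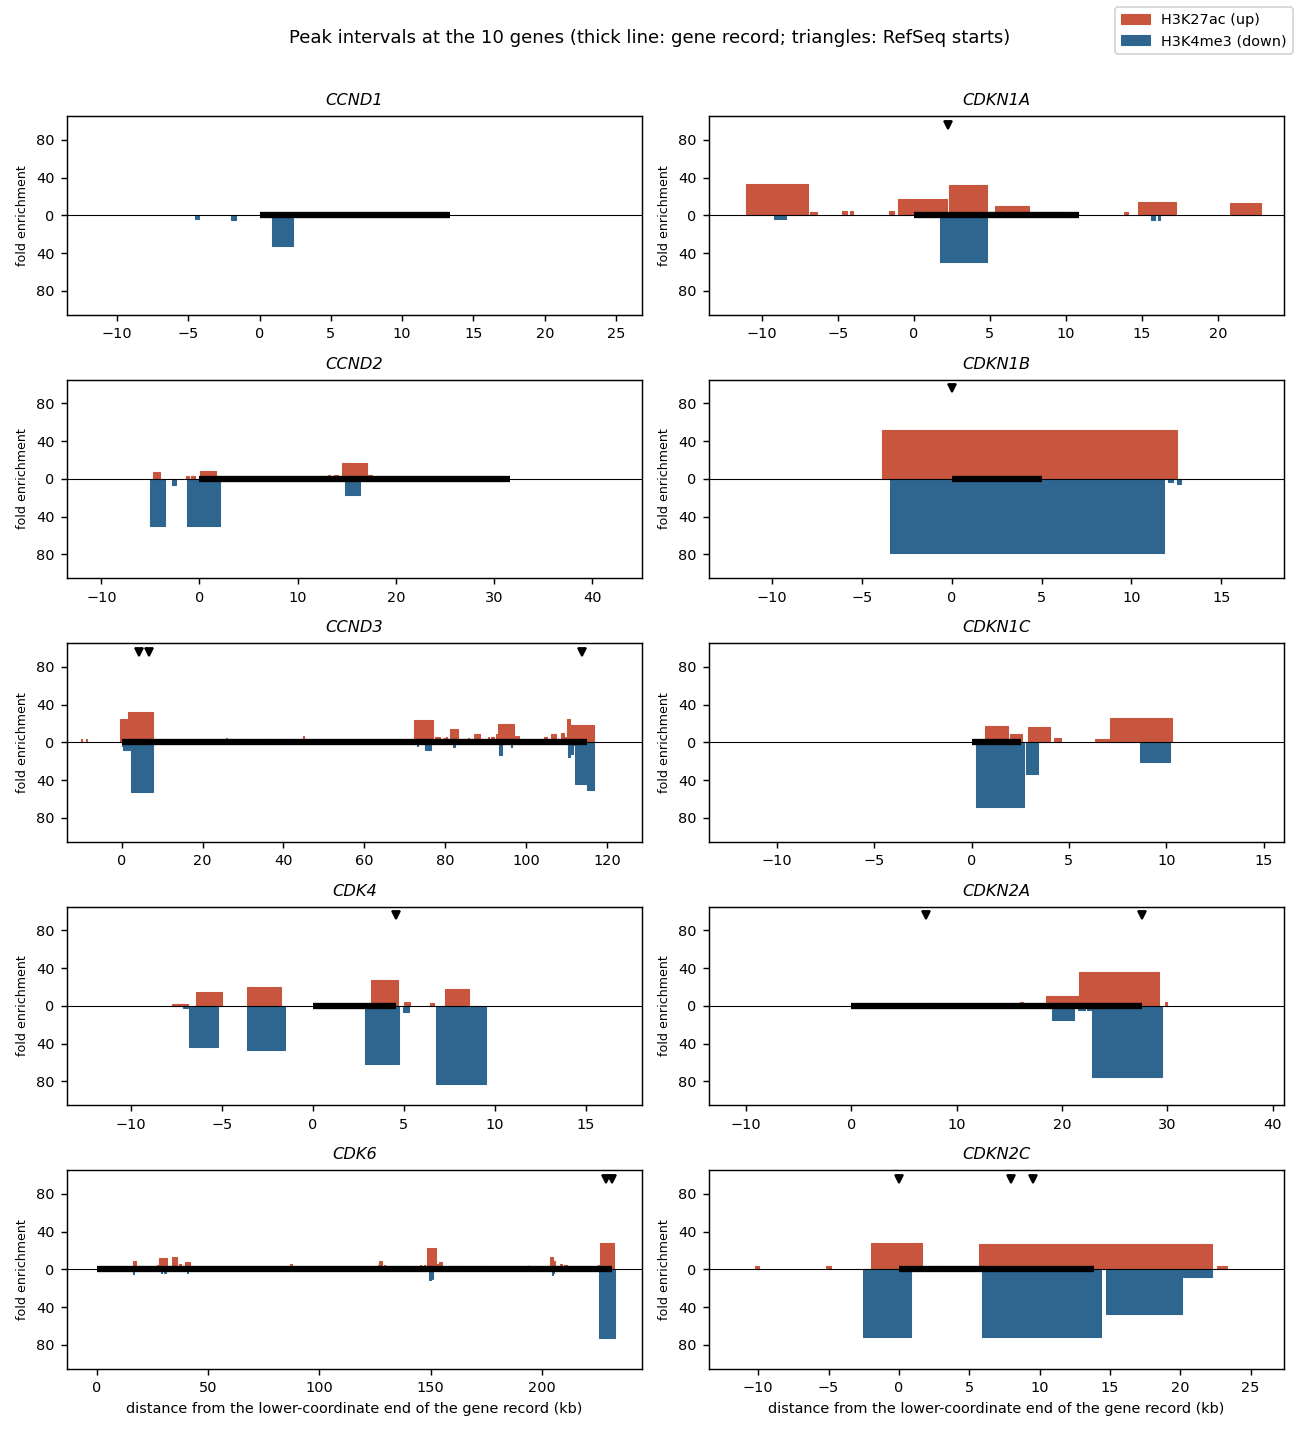
Peak intervals at the 10 genes, with H3K27ac fold enrichment drawn upwards and H3K4me3 fold enrichment downwards against the distance in kb from the lower-coordinate end of the gene record. The thick line is the gene record and triangles mark RefSeq start sites, which were matched for 7 genes. CCND1 has no H3K27ac peak, CDKN1B is covered by 1 interval of each mark, and CCND3 and CDK6 have many narrow H3K27ac peaks inside the gene.

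Among the D cyclins the marks ran from H3K4me3 alone to a long field of acetylated sites. CCND1 encodes cyclin D1, the D cyclin of many solid tissues. Its record lies at 69641156 to 69654474 of chromosome 11 (hg38). It had 3 H3K4me3 peaks in the span, of which 1 touched the record: an interval of 1489 bp (69642039 to 69643527) with a fold of 32.1 and 111 fragments at the summit (95% counting interval 91.3 to 134), 1565 bp from the record's lower-coordinate end. Only 13.9% of genes with H3K4me3 in the span had a lower highest fold, and 17.1% had a narrower widest interval. The other peaks, of 388 and 262 bp, had 14 and 11 fragments. No H3K27ac peak lay in the span, and H3K4me3 without H3K27ac in the span was found at 6.05% of protein-coding genes. The nearest was 19782 bp beyond the record, at 1 end of the neighbouring gene LTO1 (69674256 to 69675417), with a fold of 25.5.

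CCND2, which encodes cyclin D2, a D cyclin of blood cells, had its highest H3K4me3 and only weak H3K27ac at the end where its record meets the antisense RNA gene CCND2-AS1. The record lies at 4273762 to 4305353 of chromosome 12. An H3K4me3 interval of 3382 bp covered that end with a fold of 49.9 and 199 fragments (27.3% of genes with the mark had a lower highest fold), and it also touched the start of CCND2-AS1. A separate interval of 1486 bp, its summit 4512 bp outside the record and within that of CCND2-AS1, reached nearly the same fold (49.5, 161 fragments). The H3K27ac peaks at these places had folds of only 7.96 and 7.26, with 31 and 30 fragments. The strongest H3K27ac peak of the gene lay inside it, 15605 bp from the same end, with a width of 2530 bp, a fold of 16.7 and 122 fragments (101 to 146). It overlapped an H3K4me3 peak whose fold was 16.8, lower than those at the gene end.

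CCND3 encodes cyclin D3, needed for the expansion of several blood lineages. Its record spans 115 kb of chromosome 6 (41934933 to 42050035, minus strand), and RefSeq gives 3 start sites for it. The start farthest upstream, at 42048688, lay in an H3K4me3 interval of 2717 bp (fold 44.6, 209 fragments) and an H3K27ac interval of 3609 bp (fold 18.2, 133 fragments), which ran on into the neighbouring gene TAF8. The starts within the gene, at 41941808 and 41939205, shared an H3K4me3 interval of 5600 bp with the highest fold of the gene (52.3, 279 fragments) and an H3K27ac interval of 6323 bp (fold 31.8, 165 fragments). The summit of the upstream H3K27ac interval lay outside the record, 1985 bp from the start, over a background of 6.35 fragments against 4.22 at the inner starts. By H3K27ac fold the inner interval was higher, and the counting intervals did not overlap (27.2 to 37.0 against 15.3 to 21.6). By fragments the counting intervals of the inner and upstream H3K27ac summits overlapped (141 to 192 against 111 to 158). For H3K4me3 at the same starts the intervals of the folds overlapped (46.3 to 58.7 against 38.8 to 51.1). Those of the H3K4me3 fragments did not (247 to 314 against 182 to 239). Many acetylated sites lay between the upstream and inner starts. Some of them overlapped H3K4me3 peaks, with folds of up to 15.0 away from the interval at the upstream start. Over the whole span 29 of 38 H3K27ac peaks overlapped no H3K4me3. In the whole list 36.0% of H3K27ac peaks overlapped an H3K4me3 peak. The stretch from 42007180 to 42045744 is one of the regions in the authors' deposited table of super-enhancers, a name for long stretches dense in H3K27ac.

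The kinase genes both had H3K4me3 at their starts but differed in its width, in span length and in the number of H3K27ac peaks. Among genes with H3K4me3 touching the record, 48.5% had a lower highest fold than CDK4 and 71.4% than CDK6. Those with a narrower widest interval made up 26.6% for CDK4 and 99.2% for CDK6. CDK4 is a short gene (57747727 to 57752310 of chromosome 12, minus strand) in a dense neighbourhood. Its own start at 57752310 had an H3K4me3 interval of 1847 bp (fold 61.3, 259 fragments) and an H3K27ac interval of 1471 bp (fold 27.4, 156 fragments), with summits 183 and 182 bp inside the gene. The starts of MARCHF9, TSPAN31 and AGAP2 lay in the same span, and the highest H3K4me3 fold there, 82.4, belonged to MARCHF9 and not to CDK4. Those of TSPAN31 and AGAP2 had H3K4me3 folds of 46.3 and 43.6. Only 1 of 7 H3K27ac peaks in the CDK4 span lacked H3K4me3.

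CDK6, the kinase partner of D cyclins that is prominent in blood progenitors, had the largest number of H3K27ac peaks of the 10 genes. Its record covers 232 kb of chromosome 7 (92604921 to 92836573, minus strand). An H3K4me3 interval of 7391 bp with a fold of 73.0 and 263 fragments took in both of its RefSeq starts, at 92836573 and 92833959, and the start of the divergent RNA gene CDK6-AS1. Only 149 of 15749 genes had a wider H3K4me3 interval in the span. H3K27ac formed an interval of 6682 bp there, with a fold of 27.9 and 140 fragments. In all 55 H3K27ac peaks touched the record, of which 47 overlapped no H3K4me3 (in the whole list 36.0% overlapped it). The strongest away from the starts was 3981 bp wide and 79357 bp downstream of the nearer start, with a fold of 22.7 and 145 fragments. Per 10 kb of span CDK6 had 2.19 H3K27ac peaks, CCND3 2.81 and CDK4 2.85, against a median of 0.50 over protein-coding genes. Of these genes 86.7%, 92.0% and 92.2% had fewer. At CDK4 only 1 of the 7 peaks in the span touched the gene record, against 36 of 38 at CCND3. H3K27ac covered 16.3% of the CDK6 span and 30.5% of the CDK4 span. The nearest super-enhancer of the authors' deposited table, assigned to CUX1, lay 8881 kb from CDK6.

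**Figure D2:**
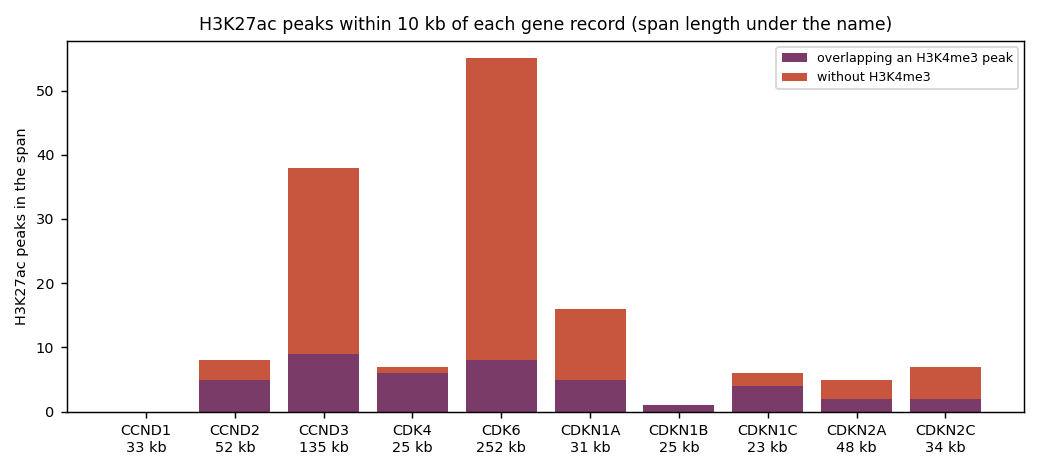
Number of H3K27ac peaks within 10 kb of each gene record (vertical axis), split into those that overlap an H3K4me3 peak and those that do not, with the length of the span under each name. CDK6 (55 peaks) and CCND3 (38), with the longest spans, stand out by number, most of them without H3K4me3, whereas CDKN1B has 1 peak and CCND1 has 0. In the whole list 36.0% of H3K27ac peaks overlap an H3K4me3 peak.

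Sequence windows of the start sites, 250 bases before to 50 after, were matched in the RefSeq promoter table (GRCh38.p14, the build of the files) for CCND3, CDK4, CDK6, CDKN1A, CDKN1B, CDKN2A and CDKN2C, 13 windows in all. CCND1, CCND2 and CDKN1C had no match. Of the 13 windows 12 touched a peak of H3K4me3 and the same 12 touched one of H3K27ac. Over the 22155 windows of protein-coding genes 63.7% touched H3K4me3, 59.1% H3K27ac and 57.1% both. In the windows printed below, capitals mark matches on either strand to 7 short motifs: GGGCGG, the GC box of SP and KLF factors, CCAAT, read by NF-Y, GCGGGAA, an E2F-type core, TGACGT, part of the cAMP response element, CACGTG, the E-box, TATAAA and the ETS-type CCGGAAG. They occurred in 45.0%, 34.6%, 6.55%, 7.98%, 7.26%, 11.5% and 10.3% of all 35116 windows of that length, in 56.3%, 34.6%, 8.14%, 8.92%, 8.34%, 9.47% and 12.8% of the windows of protein-coding genes, and in 9, 4, 1, 3, 4, 0 and 1 of the 13. Matches can overlap each other, and a match is a string of letters, not a measured binding site.

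Of the CIP/KIP inhibitors, CDKN1B had the highest fold of both marks at the record and the broadest H3K4me3 of the 10 genes, CDKN1A had the densest H3K27ac peaks, and CDKN1C had the weakest acetylation of these inhibitors. CDKN1B encodes p27, which holds cyclin-CDK2 complexes inactive in quiescent cells. The gene occupies only 12717368 to 12722369 of chromosome 12 (plus strand), yet its H3K27ac interval ran over 16383 bp (12713501 to 12729883) and its H3K4me3 interval over 15244 bp (12713958 to 12729201). Only 34 genes had a wider H3K27ac interval in their span and 7 a wider H3K4me3 interval. Both intervals also touched the records of GPR19, APOLD1 and the RNA gene LOC105369663, so the width cannot be given to 1 gene. The summits of the marks lay at different places. That of H3K4me3 was 368 bp inside CDKN1B, with a fold of 78.4 and 309 fragments (276 to 345). That of H3K27ac was 2076 bp beyond the far end of CDKN1B and 7077 bp from its start, nearer to the starts of LOC105369663 (678 bp) and APOLD1, with a fold of 51.9 and 274 fragments (243 to 308), and 99.2% of genes with H3K27ac had a lower highest fold. The start window is shown because it lies inside the broadest H3K4me3 interval of the set. It holds 3 CCAAT matches and 1 GC box.
CDKN1B start, chr12:12717118-12717417, plus strand: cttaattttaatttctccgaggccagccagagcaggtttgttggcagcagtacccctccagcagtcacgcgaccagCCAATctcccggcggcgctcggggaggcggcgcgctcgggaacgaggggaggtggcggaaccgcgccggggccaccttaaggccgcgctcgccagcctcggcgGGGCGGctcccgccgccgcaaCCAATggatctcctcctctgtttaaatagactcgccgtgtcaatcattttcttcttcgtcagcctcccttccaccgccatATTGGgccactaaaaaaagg

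CDKN1A encodes p21, the inhibitor induced by p53. The RefSeq start used here is at 36678714 of chromosome 6 (plus strand), inside a record of 36676463 to 36687332 that begins farther upstream. An H3K4me3 interval of 3109 bp covered it with a fold of 49.5 and 264 fragments, the summit 1240 bp downstream. H3K27ac was split at this start. An interval of 3227 bp ended at 36678612, before the start site, and another of 2545 bp began at 36678733, after it. Their folds were 16.8, at a summit 2171 bp upstream of the start, and 31.8, at a summit 1368 bp downstream. The upstream summit lay 80 bp inside the record's upstream end. Both intervals touched the start window, and the upstream one also covered DINOL, a divergent RNA gene of the p53 response. Another strong site lay at the edge of the span, 11767 bp upstream of the start, with a width of 4076 bp, a fold of 32.9 and 154 fragments. Its counting interval, 27.9 to 38.5, took in the fold of 31.8 at the promoter, whereas the H3K4me3 peak it overlapped had a fold of only 4.18. In all 11 of 16 H3K27ac peaks in the span had no H3K4me3, not far from the whole list, where 36.0% overlapped it. At 5.18 per 10 kb the density of H3K27ac peaks was the highest of the members, and 99.3% of protein-coding genes had a lower one. The window between the split intervals is shown for its 4 GC boxes, of which 2 overlap.
CDKN1A start, chr6:36678464-36678763, plus strand: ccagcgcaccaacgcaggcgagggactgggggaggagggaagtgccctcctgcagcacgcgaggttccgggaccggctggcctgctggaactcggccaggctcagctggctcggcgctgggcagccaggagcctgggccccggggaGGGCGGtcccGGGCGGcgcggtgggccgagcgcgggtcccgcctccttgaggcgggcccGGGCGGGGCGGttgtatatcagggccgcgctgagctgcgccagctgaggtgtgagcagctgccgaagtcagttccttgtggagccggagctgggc

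CDKN1C encodes p57, the product of an imprinted gene with a known role in stem cell quiescence. Its record is the shortest of the set (2883218 to 2885775 of chromosome 11). It had H3K4me3 in an interval of 2440 bp that covered most of the gene, with a fold of 68.2 and 241 fragments. Of genes with the mark in the span, 57.0% had a lower highest fold and 42.9% a narrower widest interval. H3K27ac over the gene was modest, with a fold of 16.8, 78 fragments (61.7 to 97.3) and a width of 1189 bp. A stronger H3K27ac peak of 3150 bp, with a fold of 25.8 and 125 fragments, lay 7066 bp beyond the record, within the RNA gene SLC67A1-AS. That peak overlapped H3K4me3 with a fold of 21.2. CDKN1C and CCND2 had the lowest H3K27ac folds at the record among the 9 acetylated genes (16.8 and 16.7), and their counting intervals overlapped (13.3 to 20.9 and 13.9 to 20.0).

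Of the INK4 genes, CDKN2A had marks that differed between its start sites, whereas every CDKN2C start had both, with H3K4me3 folds of 71.1 to 71.7. CDKN2A makes different proteins from different first exons. The upstream start, at 21995324 of chromosome 9 (minus strand), is that of the ARF transcript, whose product acts on the p53 pathway through MDM2. The downstream start, at 21974857, is that of the INK4A transcript, whose product p16 inhibits CDK4 and CDK6. The ARF start lay in an H3K4me3 interval of 6660 bp (21990549 to 21997208) with a fold of 75.2, 284 fragments and the summit 268 bp upstream, and in an H3K27ac interval of 7550 bp with a fold of 36.1 and 199 fragments. Both intervals also covered the divergent start of CDKN2B-AS1, the long non-coding RNA ANRIL. The INK4A window touched neither mark. The nearest H3K4me3 peak was 11717 bp away, and the nearest H3K27ac peak, 52 bp from the window, was 186 bp wide with a fold of 3.18, from 12 fragments against an expected 3.09. It was the only 1 of the 13 windows without a peak. Among the 4048 protein-coding genes with at least 2 windows, 31.1% had H3K4me3 at some and not at others. A weak or narrow signal under the authors' threshold would not appear in these lists. The windows are shown side by side because the marks differ so much between them: they have similar numbers of CG dinucleotides, 28 at the ARF start and 26 at the INK4A start, against a median of 21 over the windows of protein-coding genes. The INK4A window holds 2 GC boxes and the ARF window holds none of the 7 motifs.
CDKN2A ARF start, chr9:21995275-21995574, minus strand: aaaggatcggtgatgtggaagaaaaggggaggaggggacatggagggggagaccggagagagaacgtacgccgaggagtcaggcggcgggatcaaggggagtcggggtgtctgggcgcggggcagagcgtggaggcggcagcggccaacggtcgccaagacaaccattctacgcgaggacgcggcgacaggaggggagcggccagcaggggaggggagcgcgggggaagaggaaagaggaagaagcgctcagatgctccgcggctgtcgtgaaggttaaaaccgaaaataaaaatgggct
CDKN2A INK4A start, chr9:21974808-21975107, minus strand: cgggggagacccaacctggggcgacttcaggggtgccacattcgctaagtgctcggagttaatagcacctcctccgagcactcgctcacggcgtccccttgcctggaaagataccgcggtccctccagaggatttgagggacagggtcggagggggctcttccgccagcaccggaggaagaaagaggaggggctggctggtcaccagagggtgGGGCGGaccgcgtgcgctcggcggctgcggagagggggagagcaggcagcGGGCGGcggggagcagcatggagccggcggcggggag

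**Figure D3:**
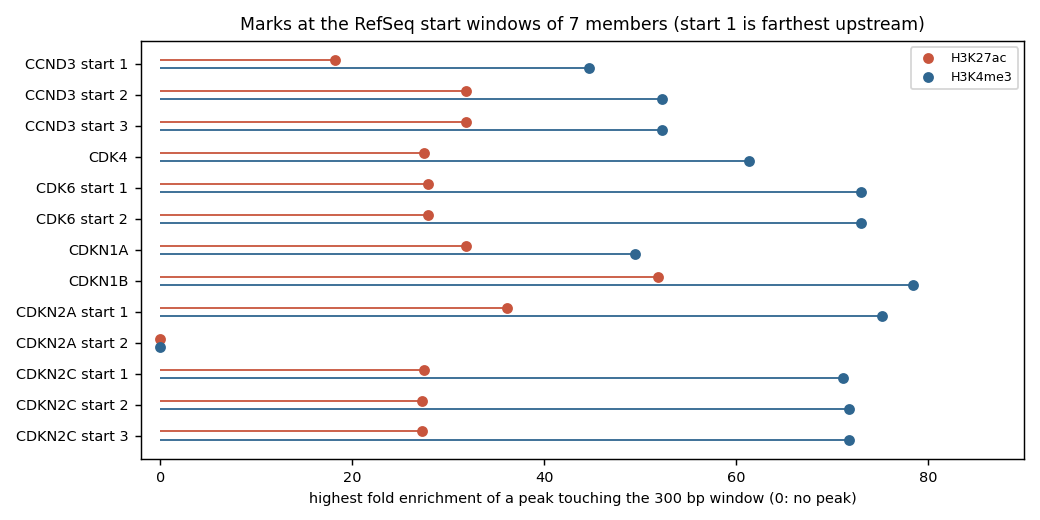
Highest fold enrichment of a peak touching each of the 13 start windows of 300 bp (horizontal axis), for H3K27ac and H3K4me3, with starts of a gene numbered from the farthest upstream. Start 2 of CDKN2A, that of INK4A, is at 0 for both marks, and at each of the other 12 the H3K4me3 value lies between 44.6 and 78.4.

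CDKN2C encodes p18, an INK4 inhibitor with a known role in haematopoietic progenitors, at 50960745 to 50974634 of chromosome 1 (plus strand). It had the widest H3K27ac interval of the set, 16544 bp (50966470 to 50983013), and only 32 genes had a wider one in their span. This interval began inside the gene, took in the RefSeq starts at 50968706 and 50970245 and ran past the gene's end. Its summit, with 249 fragments and a fold of 27.3 over an expected 8.16, lay 3242 bp beyond that end. H3K4me3 broke up over the same stretch into intervals of 8408, 5393 and 2060 bp with folds of 71.7, 47.0 and 8.40, and only the first reached into the gene. The upstream start, at 50960745, belonged to a separate pair of intervals, of 3398 bp for H3K4me3 (fold 71.1) and 3650 bp for H3K27ac (fold 27.5), which were shared with the divergent start of FAF1. The start at 50968706 is shown because it was the only 1 of the 13 windows with the E2F-type core, which it holds 2 times, beside 6 GC boxes. It has 37 CG dinucleotides, and the upstream and inner windows at 50960745 and 50970245 have 8 and 11.
CDKN2C inner start, chr1:50968456-50968755, plus strand: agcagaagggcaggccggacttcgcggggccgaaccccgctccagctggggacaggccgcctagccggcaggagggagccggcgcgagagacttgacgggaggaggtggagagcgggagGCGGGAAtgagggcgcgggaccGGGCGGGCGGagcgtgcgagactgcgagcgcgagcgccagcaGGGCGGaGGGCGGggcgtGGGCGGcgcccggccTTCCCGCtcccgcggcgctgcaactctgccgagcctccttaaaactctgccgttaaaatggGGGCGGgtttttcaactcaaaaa

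Ordered by the highest H3K4me3 fold touching the gene record, the genes ran from CDKN1B (78.4), CDKN2A (75.2), CDK6 (73.0), CDKN2C (71.7) and CDKN1C (68.2) through CDK4 (61.3) to CCND3 (52.3), CCND2 (49.9), CDKN1A (49.5) and CCND1 (32.1). In 8 of 9 neighbouring pairs of this order the 95% counting intervals overlapped. CDKN1A and CCND1 were the exception, with 43.7 to 55.8 against 26.4 to 38.6. The D cyclins therefore filled 3 of the 4 lowest places, and CDKN1A stood with them and apart from the other inhibitors. The CDKN2A value, here and for H3K27ac, is that of the interval at the ARF start, and the INK4A window touched no peak. At CDKN1A and CCND3 the expected background was 4.36 fragments, the highest of the 10 summits, and by fragments alone CDKN1A (264) and CCND3 (279) moved up to places 5 and 4, while CCND2 (199) moved down to place 9, above CCND1 (111).

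For H3K27ac the order was CDKN1B (51.9), CDKN2A (36.1), CDKN1A and CCND3 (both 31.8), CDK6 (27.9), CDKN2C (27.5), CDK4 (27.4), CDKN1C (16.8) and CCND2 (16.7), with CCND1 lacking a peak. Counting intervals overlapped in 6 of 8 neighbouring pairs. The interval at CDKN1B, whose summit lies outside the gene, stood clear of CDKN2A (45.9 to 58.4 against 31.3 to 41.5), and CDK4 of CDKN1C (23.3 to 32.1 against 13.3 to 20.9). The CDKN2C summits also lie outside the gene, 827 bp before it for the fold and 3242 bp beyond it for the fragments. By fragments CDKN2C moved up to place 2 (249 in its widest interval, over an expected 8.16), and CDKN1A fell to place 6 (149). CCND2 (122, 101 to 146) then stood clear of CDKN1C (78, 61.7 to 97.3).

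**Figure D4:**
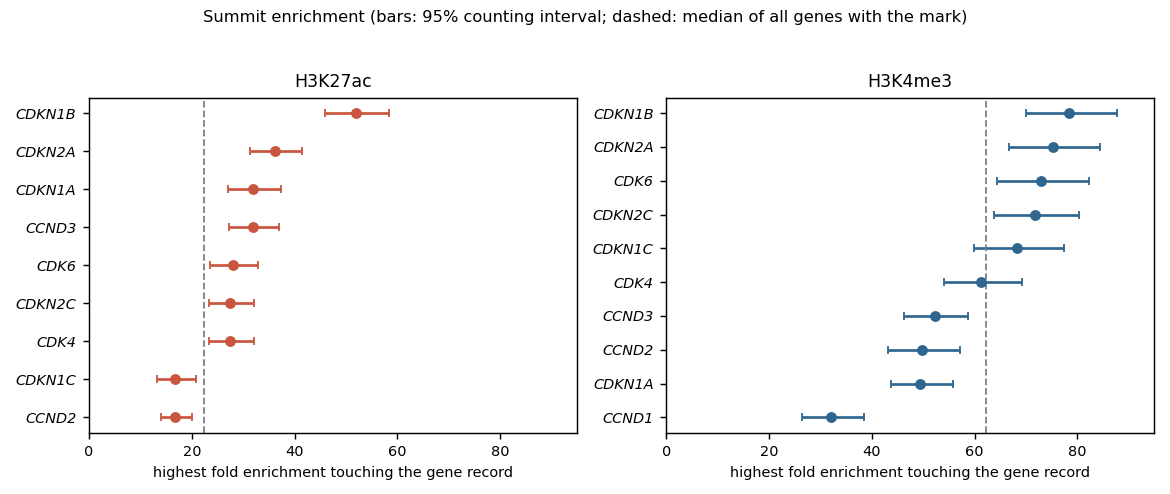
Highest fold enrichment touching each gene record (horizontal axis) for H3K27ac on the left and H3K4me3 on the right, with 95% counting intervals of the summit fragments as bars and the median over all genes with the mark as a dashed line. CDKN1B is highest for both marks, and CCND2 with CDKN1C (H3K27ac) and CCND1 (H3K4me3) are lowest.

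Breadth separated the genes more clearly. Touching the record, CDKN1B, CDKN2C, CDK6, CDKN2A and CCND3 had H3K4me3 intervals of 5600 to 15244 bp, and at least 96.8% of genes with the mark had narrower ones. The same 5 genes had the widest H3K27ac intervals, 6323 to 16544 bp, with at least 95.8% of genes narrower. The other 5 genes had H3K4me3 intervals of 1489 to 3382 bp, and the 4 of them with H3K27ac had intervals of 1189 to 3227 bp. Of all genes with the mark, 17.8% to 74.1% were narrower than these for H3K4me3 and 25.7% to 79.5% for H3K27ac. A wide interval in these lists is 1 stretch without a gap in the authors' calls, so a split such as that at CDKN1A lowers the width.

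**Figure D5:**
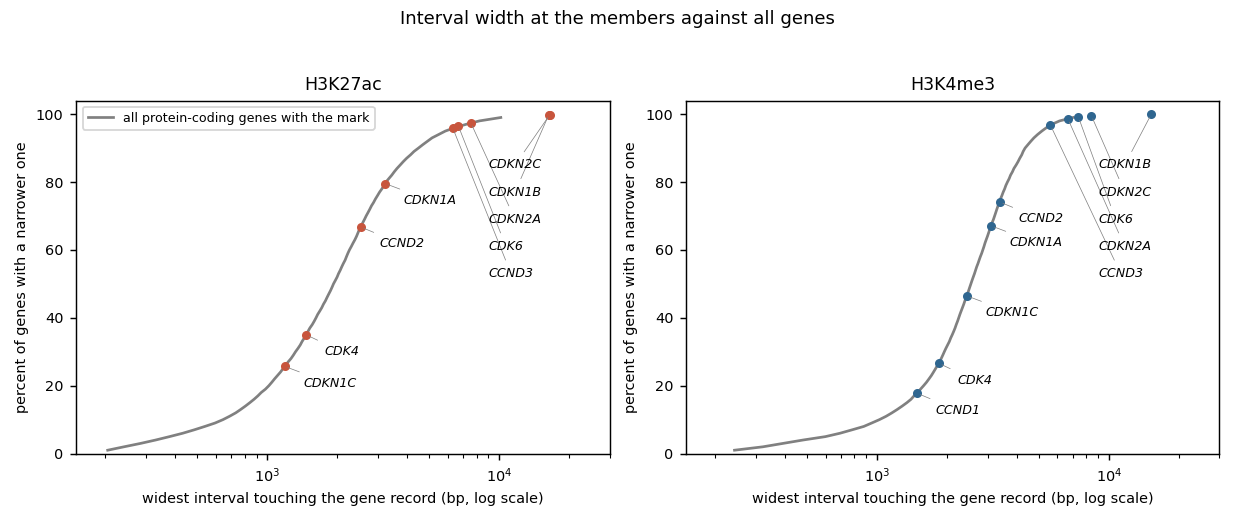
Widest interval touching the gene record (horizontal axis, bp, log scale) against the percent of protein-coding genes with the mark whose widest interval is narrower (vertical axis), with the grey line for all genes and labelled points for the members. CDKN1B, CDKN2C, CDK6, CDKN2A and CCND3 lie above 95% for both marks, and CDK4 lies in the lower part of both curves.

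Of the 10 genes 2 were linked to a super-enhancer of the authors' deposited table, named as its target or with one in the span, against 4.35% of protein-coding genes. CDKN1A was named as target in the authors' deposited table, as were 2.25% of protein-coding genes, for a region of 78.9 kb (36623012 to 36701909 of chromosome 6) ranked 160. It covers the whole gene and part of RAB44, and holds 36 H3K27ac and 6 H3K4me3 peaks. The ratio of H3K27ac to input signal over it was 5.92, below the median of 8.11 over the table, and 16.9% of regions had a lower one. The other region lies wholly inside CCND3 (38.6 kb, rank 514, where 1 is the strongest), but the authors' deposited table names TAF8, 4.78 kb away, as its target. It holds 23 H3K27ac peaks, which cover 58.2% of it, and 6 H3K4me3 peaks, which cover 10.8%. Its signal ratio was 7.10. Targets were chosen by the authors on closeness and expression within a chromatin domain, so a target's label is no independent evidence of its expression. The next nearest region to a member was that assigned to FGF6, 78.1 kb from CCND2. Of the genes with broad intervals, CDKN1B, CDKN2A, CDKN2C and CDK6 had records 684, 846, 3485 and 8881 kb from the nearest super-enhancer. The record of CCND3, also among them, holds the region ranked 514.

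The other genes of the pathway all carried both marks in their span: 32 of 32 G1/S partners, 14 of 14 upstream regulators and 12 of 12 genes of S and M phase, so that CCND1 was the only gene of these lists and the members without H3K27ac. The folds named next are the highest in the span and can belong to a neighbour. Among the G1/S partners the highest H3K4me3 folds were at RBL2, a pocket protein related to the retinoblastoma protein (89.9), and FBXW7, which marks cyclin E for degradation (88.3). The lowest were at E2F5 (52.2), an E2F that works with pocket proteins, and CCNH (54.3), the cyclin of the CDK-activating kinase. Of the upstream regulators MDM2, which degrades p53, had the highest (93.7), followed by SMAD4, the shared mediator of TGF-beta signals (88.7), and HES1, a Notch-responsive repressor (43.9), and ZBTB17 (50.8), which encodes MIZ1, the lowest. In S and M phase CCNB1, a mitotic cyclin (95.6), and AURKA, a spindle kinase (94.1), were highest, and the checkpoint kinase gene BUB1 (39.1) and the cyclin gene CCNA2 (61.7) lowest. Touching the record, AURKA had a fold of 63.9 and E2F5 of 44.1, and BMI1 (46.8) and CKS1B (51.8) then lay below ZBTB17 and CCNH. The lists had median H3K4me3 folds of 76.0, 77.6 and 75.5 against 70.0 for the members, and median widest H3K27ac intervals of 1996, 2562 and 2885 bp against 6323 bp. The myeloid and progenitor markers had wider ones than the members, with medians of 8658 bp for H3K27ac and 4809.5 bp for H3K4me3 (members 4491 bp). CDKN2B, the INK4 gene next to CDKN2A, shares the ARF intervals in its span, and touching its own record it had folds of 68.5 for H3K4me3 and 17.4 for H3K27ac.

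Likeness was measured as the distance over 4 values, the log2 of the highest fold and of the widest interval of each mark in the span, among the 14541 genes with both marks. CCND2 was most like MRPL33 (distance 0.13) and CDKN1A most like GBE1 (0.22), with VAMP8 at the same distance (0.22). CCND3 was most like PARP1 (0.14), and CDKN2A equally like CEP170 and SDCCAG8, which share their intervals (0.16). CDKN1B was most like LOC124905135 (0.22, H3K4me3 interval 13717 bp) and then FRMD8 (0.46), and CDKN2C had no gene closer than MEF2C (0.57) and GATA2 (0.59). The closest matches were those of CDK4 to LSS (0.085) and of CDKN1C to BABAM2 (0.093). For CDK4 the H3K4me3 values and the H3K27ac width compared are those of peaks at MARCHF9 and TSPAN31. For CDKN1C the H3K27ac values are those of the peak in SLC67A1-AS. For CDKN1A they are those of the peak of 4076 bp with its summit 9516 bp outside the record. The matches of these genes therefore describe the span and not the gene's own marks.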

How the data were processed

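Per the submitters' processing notes, Bowtie2 2.3.4, bedtools 2.20.1 and build hg38 were used. No source used here names the peak caller. The authors deposited 1 peak list per mark, each from 1 library, with a fold enrichment, a −log10 p-value, a −log10 q-value, a score and a summit per peak. The fold is a ratio to an expected background and was used only within its list. The deposited super-enhancer table gives total H3K27ac and input signal per region, whose scaling no source used here states.

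Fragments at each summit were recovered from fold and −log10 p, taking the fold as (fragments + 1)/(expected + 1) and the p as an upper Poisson tail, which fitted 100% of rows within 0.01. Counting intervals are exact Poisson (95%) with the background held fixed. Total reads per library are not known here, so depth is known only at summits. Files count starts from 0 and are given here from 1. Gene records, start sites and sequences came from RefSeq tables of GRCh38.p14, the same build. Peaks on chromosomes 1 to 22 and X were used. Recovery and interval search were tested on simulated data (Python 3.11.15, scipy 1.17.1).

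The members, lists and motifs were chosen with earlier results of these data known. All 10 members are named, as are, for each pathway list, the genes with the 2 highest and 2 lowest H3K4me3 folds, any gene lacking a mark, and genes most like a member, of which those for CDK6 are not reported here. CDKN2B, FOXO4, RB1, BMI1 and CKS1B are named after their values were seen. Alternatives were no flank, flanks of 1 and 25 kb, a window of 1 kb at gene ends, stricter peak sets and a larger overlap.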

Additional observations from a re-analysis of the deposited data

How the results depend on the processing

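No paired analysis was possible because each mark has 1 library, and for the same reason no library could be left out. Without flanks, with 1 kb, with the top 50% of peaks by fold, with a −log10 q of at least 3 or with 50% of a peak inside the span, 10 members had H3K4me3 and 9 had H3K27ac. Within 1 kb of a gene end 8 had both marks, since the CDKN1A start lies inside its record. With 25 kb all 10 had both, because the span of CCND1 then reached the peaks at LTO1. The median widest H3K27ac interval was then 5199.5 bp over 10 members, and the highest H3K4me3 fold of CCND1 was 96.8. Without flanks the highest H3K4me3 fold of CDK4 was 61.3 and the highest H3K27ac fold of CDKN1C 16.8, as the stronger peaks lie outside the records. Counted as named target only, 1 member was linked to a super-enhancer. Of 76 values of single genes under other flanks or overlaps 68 stayed within the counting interval of the value given and 8 did not. With fragments in place of fold, an alternative chosen after seeing the data, 7 members instead of 8 lay above the median gene for H3K27ac and 7 instead of 6 for H3K4me3. Depth limits the weak peaks most: a summit of 12 fragments has a counting interval of 6.20 to 21.0.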

Other observations

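Among the pathway genes outside the 10 members, FOXO4, a forkhead factor that acts on CDKN1B, had the widest H3K27ac interval, 13189 bp with a fold of 36.7, over H3K4me3 with a highest fold of 55.0. RB1, which encodes the retinoblastoma protein, had a super-enhancer reaching into its record: per the authors' deposited table the region of 32.3 kb ranks 348 and has RCBTB2 as its target, and 6516 bp of it lie inside RB1, counted from the RefSeq table. HES1 was the only other gene of these lists linked to one, as a named target (78.6 kb, rank 199 in the authors' deposited table).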
